A study of Papio hamadryas with 14 samples.

Results

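The enzymes described here act on drugs, other foreign compounds and the steroids, lipids and vitamins that share their chemistry. They are the genes of the array annotation whose symbol begins with CYP and a digit, UGT1A, UGT2B, GSTA, GSTM, GSTO, GSTP, GSTT, GSTZ, MGST, SULT, FMO and a digit, CES and a digit, AKR1 or EPHX. The rule reads symbols only, but it was set with earlier results of these data known. In all, 69 of the 9580 genes with a probe set of 1 symbol met the rule, and each was read from its brightest probe set over the fetal arrays. Human Affymetrix arrays measured messenger RNA of whole kidneys from baboons (Papio hamadryas), and the design sets stages of kidney development side by side. Fetal kidneys came from 60 days of gestation (60dG, 2 arrays) and from 90dG, 125dG and 160dG (3 arrays each), and adult kidneys from animals of 6, 12 and 7 years (replicates 1, 2 and 3). The labels name no treatment, genotype or sex for these groups. They call the fetal replicates biological, and they give an age for each adult replicate. All fetal arrays are of 1 type and all adult arrays of another, so age and array type cannot be told apart in any comparison of adults with fetuses.

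Metabolism of foreign compounds runs in stages. Phase 1 enzymes oxidise, reduce or hydrolyse a compound: the cytochrome P450s and the flavin monooxygenases add oxygen, carboxylesterases split esters, epoxide hydrolases open epoxides, and aldo-keto reductases reduce carbonyl groups. Phase 2 enzymes then attach a polar group, namely glucuronic acid (UGTs), sulfate (SULTs) or glutathione (GSTs), which helps the product leave in urine or bile. The liver is the best known site, and in the kidney the proximal tubule, which also secretes many drugs, carries much of this enzyme set.

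Values are probe set signals on a linear scale, and differences are given as log2(signal + 16) with the standard error (SE) of a limma fit over all 11 fetal arrays. A fold on that scale understates the change of a dim gene. Genes whose mean log2 value over the fetal arrays lay above 7.60, a signal of 178, were tested, which left 5278 genes and 33 of the 69 enzymes. Calls are limma adjusted p under 0.05, with Benjamini-Hochberg adjustment over all 5278 genes. Per array, the median probe set signal ranged from 172.9 to 194.6 in fetuses and from 210.2 to 214.4 in adults. Arrays hold no counts, and their number limits the precision. The ratio of the 3' to the 5' probe set of the control gene GAPDH, a sign of RNA quality, was 2.46 on 90dG replicate 2 and 3.43 on 90dG replicate 3. The other fetal arrays ranged from 1.62 to 1.99. In whole tissue, fewer cells of a type and less RNA per cell cannot be told apart. Many of these enzymes are close paralogs: for 22 of the 33 tested enzymes the probe set name carries the suffix (_x or _s) of sets whose probes match several transcripts, and signal from a related gene cannot be separated there.

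Between 60dG and 160dG, 11 of the 33 tested enzymes rose and 0 fell. UGT2B28, a glucuronosyltransferase of steroids, rose most (4.36 ± 0.52 log2), followed by the carboxylesterase CES1 (2.88 ± 0.39), the sulfotransferase SULT1C2 (2.09 ± 0.28), the fatty acid hydroxylase CYP4A11 (1.97 ± 0.23) and the flavin monooxygenase FMO1 (1.77 ± 0.31). The other risers were FMO2, FMO4, EPHX2, CES2, AKR1C2 and MGST2. The 11 risers are 33.3% of the enzymes tested, while 6.92% of all tested genes rose and 4.72% fell. At an unadjusted p under 0.05, 16 of the 33 enzymes and 1319 of the 5278 tested genes passed, in either direction. The median difference was 0.36 log2 for the enzymes and -0.01 for all tested genes. These counts need care, because 8 of the 33 had a mean at 60dG under the filter and entered the test through later stages. Of those 8, 5 were called, and of the 25 with a 60dG mean above the filter, 6 were called (AKR1C2, CES2, EPHX2, FMO1, FMO4 and MGST2). The share of risers among all genes with a 60dG mean above the filter was not computed. The 6 of 25 thus have no like background, and the 6.92% is not one. Leaving out 60dG replicate 1 gave 6 risers, and leaving out replicate 2 of that stage gave 8. Each of these fits leaves 1 array at 60dG, whose spread is assumed to be that of the other groups.

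**Figure D1:**
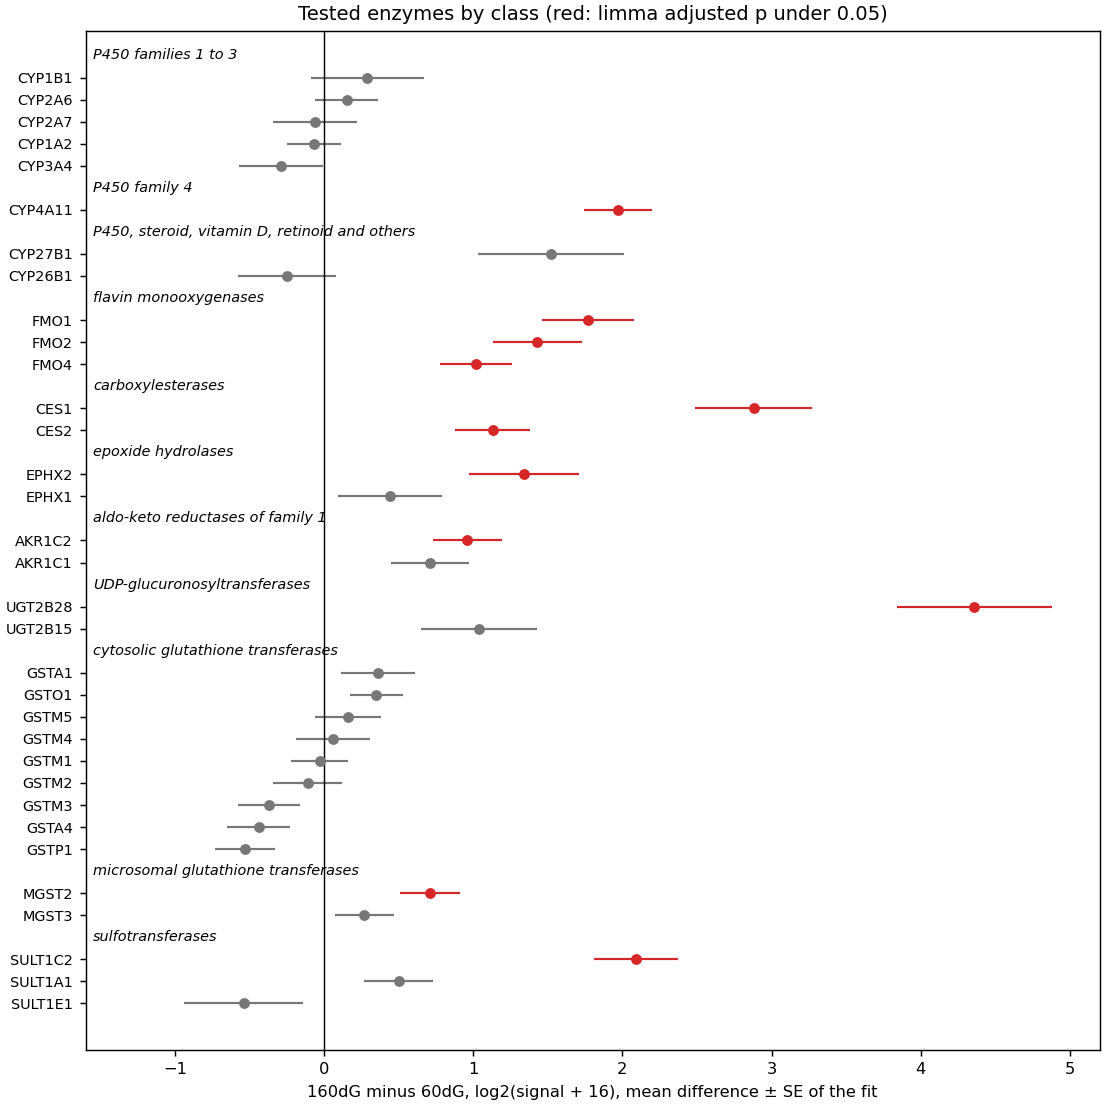
Difference between 160dG and 60dG in log2(signal + 16) for the 33 tested enzymes, grouped by class, with bars of 1 SE of the fit; red points passed limma adjusted p under 0.05. All 11 red points lie above 0, up to 4.36 for UGT2B28, and the P450s of families 1 to 3 and the cytosolic glutathione transferases have none.

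None of the tested P450s of families 1 to 3, the classic drug oxidases, was among the risers. Of 16 such genes, 5 were tested (CYP1A2, CYP1B1, CYP2A6, CYP2A7 and CYP3A4), and 0 were called in the trend, between 60dG and 160dG, or in any step. At an unadjusted p under 0.05, 0 of the 5 passed in each of these comparisons. Of the 5278 tested genes, 436 (125dG to 160dG) to 1369 (60dG to 90dG) passed. With 6.92% of all tested genes rising between 60dG and 160dG, 0 of 5 is near the background and is no result about the class. CYP1B1, which hydroxylates estrogens and polycyclic hydrocarbons and is known from tissues outside the liver, had the highest mean of the class. Its signal was 1251 and 429.7 at 60dG, 1198, 1692 and 827 at 90dG, 1659, 914 and 1030.0 at 125dG and 918, 873 and 922 at 160dG. The 4 stages overlapped, and the 60dG pair differed more from each other than the 160dG arrays did. CYP3A4, the main drug oxidase of adult liver, had 488 and 481 at 60dG and 374, 380.2 and 430.1 at 160dG, a difference of -0.29 ± 0.28 log2 (limma adjusted p = 0.587). The 60dG values lay above all 160dG values, but the fit did not call the difference. Its second probe set, below the filter, differed by 0.88 log2, the opposite direction.

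CYP4A11, which hydroxylates the end of fatty acid chains, was the P450 with a called rise between 60dG and 160dG. Its signal was 93.8 and 92.5 at 60dG, 535, 656 and 450.1 at 90dG, 455, 419.7 and 341 at 125dG and 445, 317 and 489 at 160dG. Both 60dG arrays lay below every later array, and the 90dG arrays were as high as those of later stages. The rise was 1.97 ± 0.23 log2 to 160dG (limma adjusted p = 8.42e-05) and 2.35 ± 0.23 to 90dG (limma adjusted p = 1.35e-04). A second CYP4A11 probe set, below the filter, differed by 0.55 log2 between 60dG and 160dG, so the probe sets disagree in size.

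CYP27B1, the mitochondrial enzyme that makes active vitamin D and is best known from the proximal tubule, was called in the trend. Its signal was 159 and 153 at 60dG, 183, 101 and 144 at 90dG, 149, 141 and 408 at 125dG and 826, 220.4 and 593 at 160dG. It was at or below 183 on every earlier array except 125dG replicate 3, and the 160dG arrays were widely spread. The slope was 0.17 ± 0.05 log2 per 10 days (limma adjusted p = 0.0408). The difference between 60dG and 160dG was 1.52 ± 0.49 and missed the threshold (limma adjusted p = 0.0599). The trend lost its call on leaving out replicate 2 at 60dG, any array at 90dG, replicate 3 at 125dG, or replicates 1 or 3 at 160dG, with slopes of 0.12 to 0.19. The retinoic acid hydroxylase CYP26B1, the other tested gene of this class, had 354 and 431 at 60dG and 331, 509 and 205 at 160dG, which overlapped.

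Of the P450s of steroid synthesis, 3 stood out on a single array. CYP17A1, which makes the precursors of cortisol and sex steroids, had a signal of 4960.3 on 60dG replicate 2, against 8.7 on replicate 1 and at most 183 on the other fetal arrays, a ratio of 27.1 to the next highest. CYP11A1, which starts steroid synthesis by cutting the cholesterol side chain, had 728 there and at most 65.5 elsewhere. CYP11B1, the last enzyme of cortisol synthesis, had 640.1 there and at most 112 elsewhere, and GSTA3, a glutathione transferase known for isomerising steroid intermediates, had 455 there and at most 31.2 elsewhere. All 4 of these genes were thus high in 1 of 11 fetal kidneys. Their means lay below the filter, so none was tested. The steroid P450s CYP11B2, which makes aldosterone, and CYP19A1, the aromatase, did not stand out there, with 11.5 and 120.2 against 48.7 and 164 on 90dG replicate 1.

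On 60dG replicate 2, 4 of the 69 enzymes (5.8%) and 6 of all 9580 genes (0.0626%) were at least 4 times the next fetal array and above the filter signal. The other genes were PLA2G1B, a secreted phospholipase, and STAR, which carries cholesterol into mitochondria and is a marker of the adrenal cortex. This measure was chosen after the values were seen. On each other fetal array, 0 of the 69 enzymes met it. STAR had 1097 there and at most 13.3 on other fetal arrays, and FDX1, the electron donor of the mitochondrial P450s, had 1245 there and at most 540.3 elsewhere. Among the adrenal cortex markers, 5 of 8 were measured. HSD3B2 was also highest on that array, at 154 against at most 102, while MC2R and NR5A1 were not. The summed signal of the 5 was 367 and 2668 on the 60dG arrays, 407 to 721 on the other fetal arrays and 339 to 1009 on the adult arrays, with 0 values at 0. The part of adrenal RNA in these values was not tested.

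**Figure D2:**
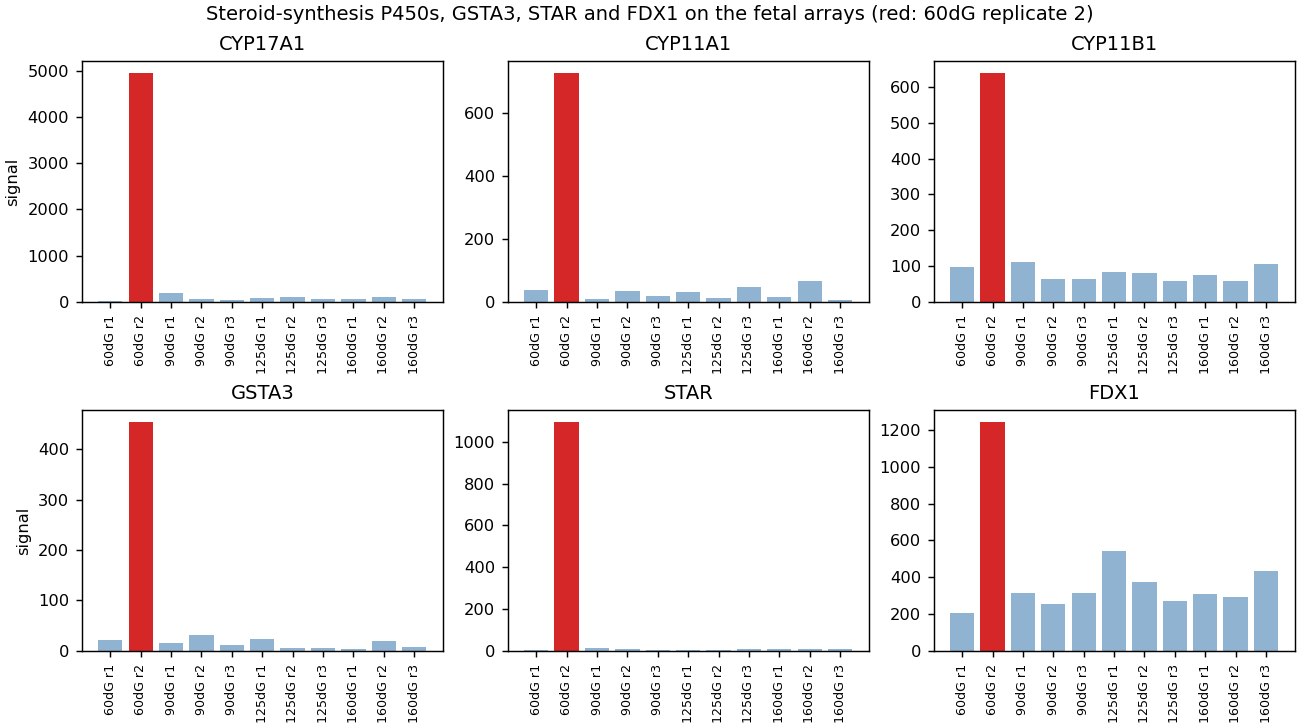
Signal (linear axis from 0) of CYP17A1, CYP11A1, CYP11B1, GSTA3, STAR and FDX1 on each of the 11 fetal arrays, 1 bar per array. The red bar, 60dG replicate 2, is the highest in every panel, at 4960.3 for CYP17A1 against at most 183 on the other arrays.

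All 3 tested flavin monooxygenases rose between 60dG and 160dG. FMO1, the form known from fetal liver and from kidney, had 322 and 456 at 60dG, 1239, 1586 and 1117 at 90dG, 1309, 1435 and 1142 at 125dG and 1230.1, 872 and 2259.9 at 160dG. Every later array exceeded both 60dG arrays, and the 3 later stages overlapped. The rise was 1.77 ± 0.31 log2 (limma adjusted p = 0.00195), and the rise to 90dG alone was 1.72 ± 0.31 (limma adjusted p = 0.00532). The step to 90dG was not called without 60dG replicate 1 (1.48 log2).

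FMO2, known as the lung form, had 158 and 121 at 60dG, 167, 274 and 259 at 90dG, 320.4, 177 and 237 at 125dG and 296, 412 and 526 at 160dG. The 160dG arrays lay above all 60dG and 90dG arrays, while 125dG overlapped with 90dG and 160dG. Both the rise to 160dG (1.43 ± 0.30 log2, limma adjusted p = 0.00668) and the trend (0.13 ± 0.03 log2 per 10 days, limma adjusted p = 0.0125) were called. The former was lost without 60dG replicate 2 (1.26 log2) and the latter without 160dG replicate 3 (0.11). FMO4, a form with few known substrates, had 349.5 and 299.7 at 60dG and 658, 705 and 659 at 160dG, a rise of 1.02 ± 0.24 log2 (limma adjusted p = 0.0134). These groups did not overlap, but the call was lost without 60dG replicate 1 (1.13 log2) or replicate 2 (0.92).

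**Figure D3:**
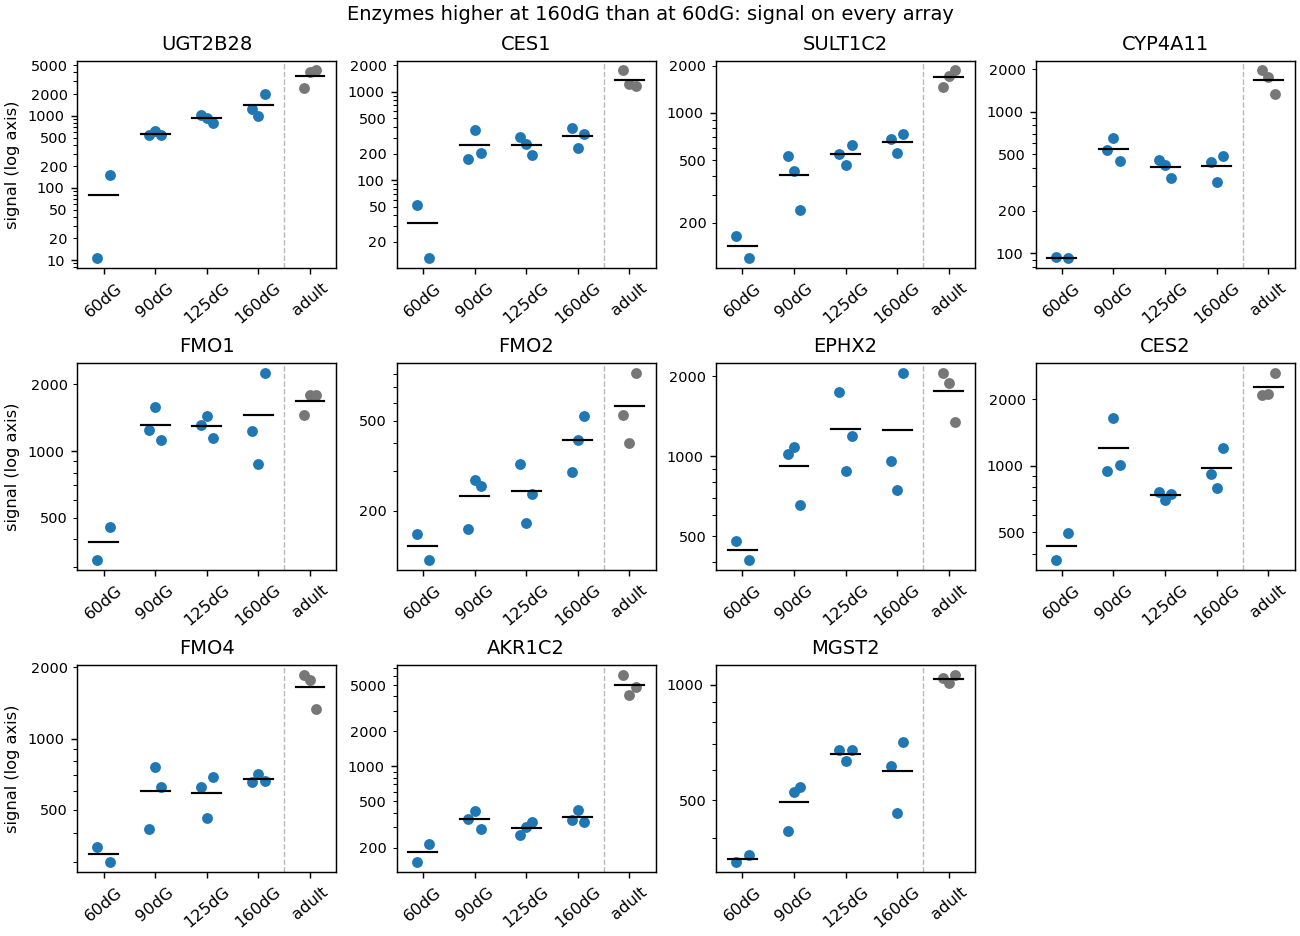
Signal (log axis) of the 11 enzymes called higher at 160dG than at 60dG, 1 point per array, with a line at each group mean; blue points are fetal arrays and grey points adult arrays of another type. In each panel both 60dG points lie below all 160dG points, and UGT2B28 goes from 10.6 and 149.8 to at least 1007. The panels were chosen by the call, so this separation is no separate result. Some enzymes that were not called, such as AKR1C1 and UGT2B15, did not overlap between these stages either.

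Both carboxylesterases rose. CES1, which hydrolyses drug esters and lipid esters, had 51.8 and 13.1 at 60dG, 171, 369.9 and 203 at 90dG, 307, 259 and 191 at 125dG and 391, 229 and 333 at 160dG. Both 60dG arrays were below every later array, which overlapped among themselves. The difference was 2.88 ± 0.39 log2 (limma adjusted p = 2.72e-04), and it was 3.49 without 60dG replicate 1 and 2.27 without replicate 2. With a mean of 7.64, CES1 lay just inside the filter. Its trend of 0.23 ± 0.06 log2 per 10 days (limma adjusted p = 0.0213) lost its call on leaving out either 60dG array (0.21 without replicate 1, 0.14 without replicate 2) or the first 160dG array (0.23).

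CES2, which prefers esters with a large alcohol group, had its highest mean of the fetal stages at 90dG. It had 373 and 496 at 60dG, 951, 1651 and 1013 at 90dG, 764, 696 and 742 at 125dG and 919.5, 791 and 1208 at 160dG. The 90dG arrays were above all 60dG and 125dG arrays and overlapped with 160dG, and the highest, replicate 2, is 1 of the 2 with a raised GAPDH ratio. The rise to 90dG was 1.41 ± 0.25 log2 (limma adjusted p = 0.00475) and that to 160dG 1.13 ± 0.25 (limma adjusted p = 0.00816). The decline from 90dG to 125dG was -0.66 ± 0.22 and missed the threshold (limma adjusted p = 0.0904). Without 60dG replicate 1, neither rise was called (1.21 and 0.93 log2). A second probe set of CES2 differed by 1.44 log2 between 60dG and 160dG, and the remaining one, below the filter, by -0.80.

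Of the epoxide hydrolases, EPHX2 was called and EPHX1 was not. EPHX2, the soluble form that acts on fatty acid epoxides, had 479.9 and 407 at 60dG, 1020.5, 1082 and 659 at 90dG, 1739.8, 881 and 1195 at 125dG and 958, 746 and 2068 at 160dG. Every later array exceeded the 60dG arrays, and the 160dG arrays were widely spread. The difference was 1.34 ± 0.37 log2 (limma adjusted p = 0.0302). The call was lost on leaving out either 60dG array (1.45 without replicate 1, 1.22 without replicate 2) or replicate 3 at 160dG (0.91). EPHX1, the microsomal form that acts on many foreign epoxides, had 241 and 395 at 60dG and 562, 223 and 604 at 160dG, which overlapped (0.44 ± 0.35 log2, limma adjusted p = 0.504). Whether the EPHX2 and EPHX1 changes differ was not tested.

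AKR1C1 and AKR1C2, near-identical reductases of steroids and carbonyl compounds, were the tested members of their family, and their probe sets may share signal. AKR1C2 had 149.6 and 214 at 60dG, 356, 414 and 291 at 90dG, 257, 299 and 330.4 at 125dG and 344, 425 and 330.3 at 160dG. The 60dG arrays were the lowest, and the later stages overlapped. Its rise of 0.96 ± 0.23 log2 was called (limma adjusted p = 0.0135), but not without 60dG replicate 1 (0.72) or with its second probe set (0.93). AKR1C1 had 219 and 379 at 60dG and 421, 656 and 406 at 160dG. These did not overlap, and the difference of 0.71 ± 0.26 log2 missed the threshold (limma adjusted p = 0.0993).

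Among the conjugating enzymes, UGT2B28 showed the steepest rise of all 33 enzymes. It had 10.6 and 149.8 at 60dG, 542, 612 and 549.9 at 90dG, 1038, 942 and 800.4 at 125dG and 1234, 1007 and 1982 at 160dG. The 60dG pair was far apart but below every other array, the 90dG arrays lay below all later ones, and 125dG and 160dG overlapped. The difference between 60dG and 160dG was 4.36 ± 0.52 log2 (limma adjusted p = 8.42e-05), and the trend 0.37 ± 0.07 log2 per 10 days (limma adjusted p = 0.00314). The size rests on the dim 60dG arrays: it was 3.04 log2 without replicate 1 and 5.68 without replicate 2, and was called in both. UGT2B15, which conjugates androgens, had 165, 120.1 and 222 at 125dG and 470.2, 183 and 479.9 at 160dG. Of the 160dG arrays, replicates 1 and 3 were high, and replicate 2 overlapped with 125dG. The step of 1.01 ± 0.35 log2 was not called (limma adjusted p = 0.367). Between 60dG and 160dG UGT2B15 did not overlap, and the difference of 1.04 ± 0.39 log2 missed the threshold (limma adjusted p = 0.111). UGT2B genes are close paralogs, and both probe sets carry the suffix of shared sets. No probe set with 1 symbol named a UGT1A gene, and 7 probe sets with several symbols that include UGT1A were left out.

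Of 3 tested sulfotransferases, 1 was called. SULT1C2, known from fetal kidney, had 166 and 119 at 60dG, 533, 428 and 243 at 90dG, 545, 467 and 621 at 125dG and 684, 554 and 731 at 160dG. The 60dG arrays were the lowest, 90dG replicate 3 was next, and the 160dG arrays were the highest group with some overlap with 125dG. Its rise was 2.09 ± 0.28 log2 (limma adjusted p = 2.43e-04), with a trend of 0.19 ± 0.03 log2 per 10 days (limma adjusted p = 0.00224), and its other probe sets differed by 1.46 and 1.32. SULT1E1, the estrogen sulfotransferase, had 486, 528 and 314 at 125dG and 183, 90.8 and 279.8 at 160dG. All 160dG arrays were below all 125dG arrays, and the difference of -1.28 ± 0.36 log2 was not called (limma adjusted p = 0.221). SULT1A1, which conjugates phenols, was not called, with 0.50 ± 0.23 log2 between 60dG and 160dG (limma adjusted p = 0.187).

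The cytosolic glutathione transferases were the largest tested class and showed no called difference between 60dG and 160dG in any of 9 genes, with a median of -0.03 log2. At an unadjusted p under 0.05, 1 of the 9 passed, beside 1319 of the 5278 tested genes. Beside the 6.92% of all tested genes that rose and the 4.72% that fell, 0 of 9 is near the background. GSTP1, the form known from fetal and dividing tissue, had 1682 and 1434 at 60dG, 2016, 1764 and 2353 at 90dG, 1578, 1277 and 1383 at 125dG and 1184, 1234 and 846 at 160dG. The 160dG arrays were below all earlier arrays, and the difference of -0.53 ± 0.20 log2 missed the threshold (limma adjusted p = 0.104).

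GSTM5, a mu-class transferase, was called in 2 steps that ran opposite ways. It had 893 and 1124 at 60dG, 1325, 2054 and 2289 at 90dG, 1133, 1184 and 954 at 125dG and 1162, 1064 and 1146 at 160dG. The 90dG arrays were above all other fetal arrays, and the remaining stages overlapped. The rise to 90dG was 0.87 ± 0.22 log2 (limma adjusted p = 0.0258) and the fall to 125dG -0.75 ± 0.19 (limma adjusted p = 0.0433). The 2 highest 90dG arrays are those with the raised GAPDH ratio. Without them the differences were 0.40 and -0.28, and neither was called. The rise was also lost without either 60dG array, 90dG replicate 2 or 90dG replicate 3 (0.70 to 1.03 log2). The fall was lost on leaving out any single fetal array other than 90dG replicate 1 (-0.81 to -0.60).

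Of the microsomal transferases, MGST2, which also makes leukotriene C, had 345 and 359.8 at 60dG, 416, 524 and 543 at 90dG, 675, 634 and 677 at 125dG and 616, 464 and 709 at 160dG. The 60dG arrays were the lowest and the 125dG arrays lay above those of 90dG. The rise of 0.71 ± 0.20 log2 was called (limma adjusted p = 0.0348), but not on leaving out either 60dG array, or replicate 1 or replicate 3 at 160dG (0.58 to 0.74). MGST3, a membrane peroxidase, differed by 0.27 ± 0.20 log2 and was not called (limma adjusted p = 0.454).

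By step, the calls lay early. From 60dG to 90dG, 8 of 33 enzymes rose (24.2%) and 0 fell, beside 5.53% and 3.58% of all tested genes. The median difference was 0.54 log2 for the enzymes and 0.04 for all tested genes. At an unadjusted p under 0.05, 16 enzymes and 1369 of the 5278 tested genes passed. The 8 were UGT2B28, CES1, CYP4A11, FMO1, CES2, SULT1C2, AKR1C2 and GSTM5, of which 4 had a 60dG mean under the filter. From 90dG to 125dG, 0 enzymes rose and 1 fell (GSTM5), beside 2.56% and 2.61% of all tested genes. From 125dG to 160dG, 0 rose and 0 fell with limma, beside 0.0758% and 0.246%. In that step 7 enzymes and 436 of the 5278 tested genes passed at an unadjusted p under 0.05. Whether the first step differs from the later ones was not tested. The number called from 60dG to 90dG was 4 without 60dG replicate 1 and, in a fit chosen after seeing the data, 2 (CYP4A11 and SULT1C2) without 90dG replicates 2 and 3. Among single calls, that of SULT1C2 was lost without 60dG replicate 2 (1.13 log2), and that of AKR1C2 without 60dG replicate 1 (0.67) or 90dG replicate 2 (0.79).

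**Figure D4:**
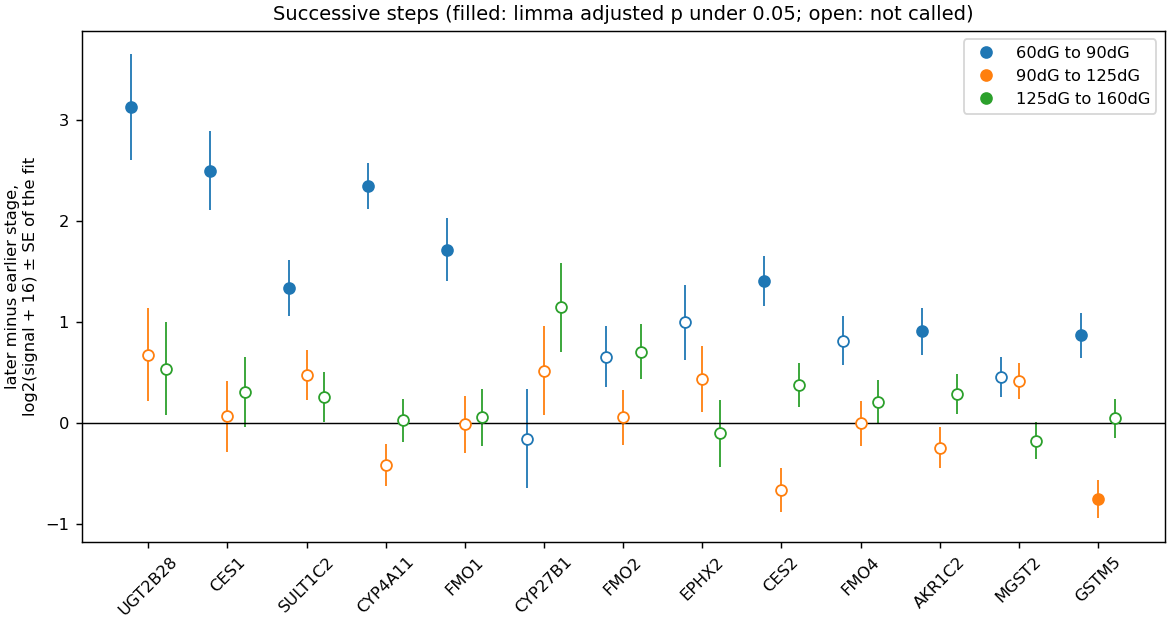
Difference between successive stages in log2(signal + 16) for the 13 enzymes called in the trend, between 60dG and 160dG, or from 60dG to 90dG, with bars of 1 SE of the fit; filled points passed limma adjusted p under 0.05. The 8 filled blue points, for the step from 60dG to 90dG, lie above 0, and 1 other point is filled, GSTM5 at -0.75 from 90dG to 125dG.

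Over the whole of gestation, 5 of 33 enzymes had a called linear slope, all upwards (15.2%), beside 4.83% of all tested genes rising and 4.91% falling. The 5 were UGT2B28, CES1, SULT1C2, CYP27B1 and FMO2. All 5 are among the 8 enzymes with a 60dG mean under the filter, which entered the test through later stages. Of the 25 with a 60dG mean above the filter, 0 were called upwards, so the 15.2% is no result about the enzymes as a set. Without 60dG replicate 2, the array with high steroid P450s, 3 enzymes rose and 2 fell (GSTA4 and GSTP1), and with a filter at the 0.75 quantile 4 rose and 1 fell (GSTP1). At an unadjusted p under 0.05, 15 of the 33 enzymes and 1326 of the 5278 tested genes passed, in either direction. The median slope was 0.02 log2 per 10 days for the enzymes and -0.00 for all tested genes. Leaving out replicate 1 or replicate 3 at 160dG gave 3 called enzymes, and leaving out replicate 2 gave 8. It was 10 without the 90dG group and 10 without 90dG replicates 2 and 3, both chosen after seeing the data, and 4 of the 5 were among each of those 10.

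The partners of these enzymes were taken from 6 lists of other phase 1 enzymes, other conjugating enzymes, P450 electron donors, cofactor supply, regulators and efflux transporters. Of 65 partner genes measured, 39 were tested, and 12 rose and 1 fell between 60dG and 160dG, beside 6.92% and 4.72% of all tested genes. All 5 tested genes of the list of other conjugating enzymes rose: HNMT, which methylates histamine (1.98 ± 0.45 log2), GLYAT, which joins glycine to acids such as benzoate (1.44 ± 0.30), BPHL, which is itself a hydrolase, of valine ester drugs (0.99 ± 0.24), GSTK1, a glutathione transferase of mitochondria and peroxisomes (0.92 ± 0.27), and TPMT, which methylates thiopurines (0.90 ± 0.24). GLYAT had 161 and 325 at 60dG and 649.8, 643 and 664 at 160dG, without overlap. Among 12 other phase 1 enzymes, the aldehyde oxidase AOX1 (1.00 ± 0.21) and the aldehyde dehydrogenase ALDH2 (0.63 ± 0.18) rose. ALDH1A1, which makes retinoic acid, fell (-0.97 ± 0.24), from 2403 and 2384 at 60dG to 1131, 1425 and 1117 at 160dG. The partner counts carry the limit given for the enzymes. GSTK1 (154 and 173.1) and AOX1 (162.9 and 144.7) were under the filter signal of 178 at 60dG and entered the test through later stages. How many partners did so was not counted, so the number of risers is no result about the lists.

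Of 4 tested electron donors, CYB5A, the cytochrome b5 that assists P450s, rose (0.63 ± 0.17 log2), and POR, the reductase that all microsomal P450s need, was not called (-0.11 ± 0.27). Among 7 regulators, PPARA, the fatty acid receptor whose known targets include CYP4A genes, rose (1.09 ± 0.24). PPARA was not called from 60dG to 90dG (0.36 ± 0.24, limma adjusted p = 0.367), the step in which CYP4A11 was called. A link between the 2 genes was not tested. NFE2L2, the oxidative stress factor NRF2, also rose to 160dG (0.66 ± 0.16). NFE2L2 was lowest at 90dG, with 858, 1045 and 1015, and rose from there to 125dG (0.80 ± 0.14), while its inhibitor KEAP1 rose from 60dG to 90dG (1.23 ± 0.30). The liver factor CEBPA also rose from 60dG to 90dG (1.07 ± 0.23). In glutathione synthesis, GCLM rose to 160dG (0.81 ± 0.22) and GSS to 90dG (0.84 ± 0.20). GCLM had 146.6 and 138.2 at 60dG, under the filter signal of 178, and also entered the test through later stages. The efflux transporter SLC47A1, which moves organic cations into urine, rose to 160dG (1.34 ± 0.35). All these calls are limma adjusted p under 0.05. The alternative settings were followed for the enzymes only, so whether partner or marker calls rest on a single array was not tested.

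Most tested markers of the proximal tubule rose over the same stages as the called enzymes. Of 20 such markers 15 were measured and 12 tested. Of the 12, 11 rose between 60dG and 160dG, beside 6.92% of all tested genes, and 10 from 60dG to 90dG, beside 5.53%. Of the 33 tested enzymes, 11 and 8 rose in these 2 comparisons. The marker counts carry the limit given for the enzymes. PCK1 (126.7 and 108.3) and SLC5A2 (112.6 and 153.3) were under the filter signal of 178 at 60dG and entered the test through later stages. How many markers did so was not counted. The summed signal of the 15 was 3579 to 4388 at 60dG, 8238 to 10229 at 90dG, 10075 to 11002 at 125dG, 8564 to 16515 at 160dG and 24430 to 26246 in adults, with 0 values at 0. LRP2 (megalin), a tubule marker, had 1682, 1739 and 4539.9 at 160dG, highest on replicate 3. Of the called risers to 160dG, UGT2B28, SULT1C2, FMO1, FMO2, EPHX2 and MGST2 also had their highest fetal signal there. CES2, CYP4A11 and FMO4 were highest on 90dG replicate 2, CES1 on 160dG replicate 1 and AKR1C2 on 160dG replicate 2. The markers PCK1 and SLC22A6 were highest on 90dG replicate 2, SLC13A3 on 90dG replicate 3, CUBN and SLC17A1 on 125dG replicate 3, and the others on 160dG replicate 3. Hepatocyte markers, of which 13 of 14 were measured, summed to 1423 to 2250 at 60dG, 1953 to 2059 at 90dG, 955 to 1323 at 125dG, 1138 to 1286 at 160dG and 1495 to 2324 in adults. Of the 2 tested, APOA1 rose from 60dG to 90dG (1.15 ± 0.30 log2, limma adjusted p = 0.0315) and fell from 90dG to 125dG (-1.23 ± 0.27, limma adjusted p = 0.0248). SERPINA1 also fell from 90dG to 125dG (-0.94 ± 0.24, limma adjusted p = 0.044). Leukocyte markers, 7 of 9 measured, summed to 498 to 570 at 60dG, 530 to 750 at 90dG, 499 to 828 at 125dG, 699 to 956 at 160dG and 1176 to 1195 in adults. Markers of other nephron segments, 3 of 5 measured, summed to 1036 to 1119 at 60dG, 1030 to 1103 at 90dG, 1222 to 1490 at 125dG, 1858 to 3105 at 160dG and 796 to 1197 in adults. Among them SLC12A1, the salt carrier of the thick ascending limb, rose between 60dG and 160dG (1.60 ± 0.27 log2, limma adjusted p = 0.00157). The part of these markers in the enzymes' rise was not tested.

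Adult kidneys carried more of many of these enzymes than 160dG kidneys, with the array type differing between the groups and no test made. By the mean over both groups, 5283 genes and 33 of the enzymes passed the filter, and this set includes SULT1B1 and CYP3A43 in place of CYP26B1 and SULT1E1. Of the 33, 14 (42.4%) were at least 2-fold higher in adults without overlap and 1 (3.03%) at least 2-fold lower, beside 8.37% and 9.05% of all 5283 genes. The median difference was 0.80 log2 for the enzymes and 0.00 for all genes. Enzymes bright in adults alone could enter through that group.

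AKR1C2 stood highest, with 344, 425 and 330.3 at 160dG and 6156, 4142 and 4832 in adults (3.72 log2). AKR1C1 went with it, from 421, 656 and 406 to 3178, 3334 and 2886 (2.66). All adult arrays were several times above all fetal arrays for both, whose fetal range was narrow by comparison. CES1 had 1735, 1224 and 1146 in adults (2.06), CYP4A11 1956, 1760.0 and 1344 (1.98) and MGST3 5538, 6880.3 and 5752 (1.82). UGT2B28, UGT2B15, SULT1C2 and SULT1B1 were each 1.34 log2 higher, CYP2A7 and FMO4 1.26, CES2 1.23, CYP2A6 1.16 and GSTA1 1.02. Other probe sets gave smaller differences for SULT1C2 (0.36 and 0.56), CYP4A11 (0.83), AKR1C2 (2.62) and AKR1C1 (2.19), larger ones for CES2 (1.48 and 3.09), CYP2A6 (1.34 and 1.45) and GSTA1 (2.37), and 0.80 and 1.73 for UGT2B15. Of the 11 enzymes that rose between 60dG and 160dG, FMO1 (0.31), FMO2 (0.46) and EPHX2 (0.60) overlapped between 160dG and adults, and MGST2 (0.80) was higher by less than 2-fold.

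Among the 33, CYP1B1 was the 1 enzyme at least 2-fold lower without overlap, with 918, 873 and 922 at 160dG and 119, 134 and 117 in adults (-2.72 log2). All 3 adult arrays were below every fetal array. Its other probe sets differed by -1.46 and -0.92 log2, the same direction with a smaller size. GSTM5 (-0.03), GSTM1 (-0.11) and GSTM2 (-0.13) overlapped between the groups. For GSTM4 the probe sets disagreed, at 0.70 and -1.87 log2, so no direction is given. Outside the 33, CYP20A1, a P450 of unknown function, had 209, 224 and 160.5 at 160dG and 105, 58.2 and 45.6 in adults (-1.37 log2), without overlap. CYP26B1 (-1.65) and SULT1E1 (-1.09) were also lower in adults, with overlap.

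**Figure D5:**
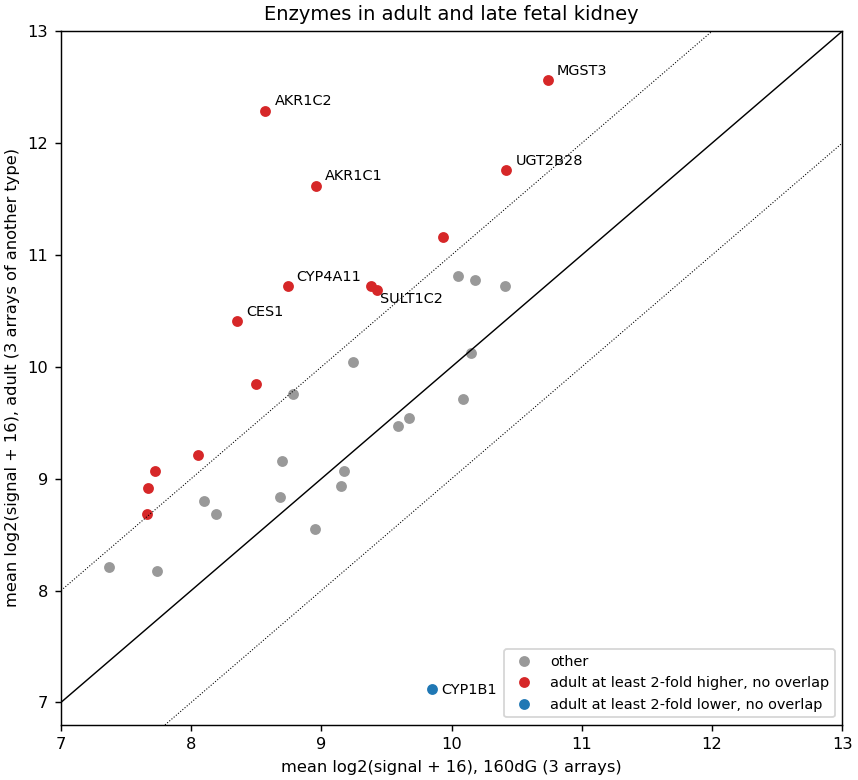
Mean log2(signal + 16) of the 33 enzymes above the filter in adult kidneys against 160dG kidneys, 3 arrays each and of different array types; the solid line marks equal values and the dotted lines a 2-fold difference. Red points (14) are at least 2-fold higher in adults without overlap, led by AKR1C2 (3.72), and the blue point is CYP1B1 (-2.72).

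The remaining 36 enzymes lay below the filter over the fetal arrays, with mean log2 values of 4.25 to 7.54, and 13 of them had at least 1 fetal array above the filter signal. From families 1 to 3 they were CYP2B6, CYP2B7P, CYP2C8, CYP2D6, CYP2E1, CYP2J2, CYP2R1, CYP2U1, CYP3A5, CYP3A43 and CYP3A7-CYP3A51P, and from family 4 CYP4B1 and CYP4F12. Of the steroid, sterol and vitamin P450s, CYP7B1, CYP11A1, CYP11B1, CYP11B2, CYP17A1, CYP19A1, CYP24A1, CYP27A1, CYP39A1 and CYP46A1 were below it, as was CYP20A1, a P450 of unknown function. The others were FMO5, FMO6P, AKR1B10, AKR1C3, AKR1C4, AKR1D1, UGT2B4, GSTA3, GSTT1, SULT1B1, SULT2B1 and SULT4A1. A low signal on a human array does not show that the baboon transcript is absent. Just outside the filter were SULT1B1 (7.54) and CYP20A1 (7.43), and just inside it GSTA1 (7.62) and CES1 (7.64).

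Without the filter, limma called 3 of these 36 in some comparison. The share of all genes called without the filter is not given here, so this count is no result about the 36. CYP3A5, the P450 of family 3 best known from human kidney, had 21 and 23.4 at 60dG, 198, 36.4 and 173 at 90dG, 100.1, 153 and 31.5 at 125dG and 154, 257 and 149 at 160dG. Its difference between 60dG and 160dG was 2.37 ± 0.60 log2 (limma adjusted p = 0.0311), and 90dG replicate 2 and 125dG replicate 3 were nearly as low as the 60dG arrays. A second CYP3A5 probe set, dimmer still, differed by 0.03 log2, so the rise rests on 1 probe set. GSTT1, a theta-class transferase, had 16.8 and 15.8 at 60dG and 161, 63 and 186 at 160dG (2.13 ± 0.55 log2, limma adjusted p = 0.0334). Both genes had no overlap between these stages. CYP27A1, the mitochondrial sterol hydroxylase, had 10.5 and 15.8 at 60dG and 94.9, 35.1 and 119.8 at 160dG, with a trend of 0.17 ± 0.04 log2 per 10 days (limma adjusted p = 0.0348). Most of these signals lie under 178, where the arrays measure least well.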

How the data were processed

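Total RNA from whole kidney was labelled with biotin and hybridised to Affymetrix arrays, per the labels. The authors deposited linear signal intensities per probe set, and the submitters' processing notes name GCOS. Which version, algorithm and scaling were used is not given in the sources used here. The 2% trimmed means of the arrays differed by at most 1.066 times, so intensities were not rescaled. Gene names came from the platform annotation, and probe sets with several symbols (735) or none (1340) were left out. The enzymes, classes and gene lists were chosen with earlier results of these data known.

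Of each gene, the probe set brightest over the fetal arrays was used, as log2(signal + 16). limma 3.58.1 in R 4.3.3 (lmFit, eBayes with an intensity trend) was fitted to 11 fetal arrays with 1 mean per stage, or with a slope. The adult arrays were not tested. Named enzymes are those called in any comparison, the brightest of each class, the 10 largest adult differences each way without overlap, called partner genes, and genes near the filter; other named genes were chosen after their values were seen. Same-numbered arrays of different stages deviated with correlations of -0.11 to 0.18, over 0.1 in 2 of 15 pairs, so replicate numbers were not taken to pair samples. The fit was also run on simulated data with independent normal noise for each gene. Those data hold no array that stands apart and no difference in RNA quality, so that run cannot speak to either. Alternatives were other pseudocounts (1 and 64), filters, quantile normalization, eBayes without a trend, the replicate block, other probe sets and leaving out each array. Figures were drawn with matplotlib 3.10.9.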

Additional observations from a re-analysis of the deposited data

How the results depend on the processing

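Of the comparisons, the median difference between adults and 160dG and the counts of called enzymes moved as follows. For the trend (5 called), leaving out 1 array gave 3 to 8, and leaving out the 90dG group or 90dG replicates 2 and 3, both chosen after seeing the data, gave 10. Between 60dG and 160dG (11 called), leaving out 1 array gave 6 to 13, and a filter at the 0.75 quantile, which tests 18 enzymes, gave 7. From 60dG to 90dG (8 called), leaving out 1 array gave 4 to 9, and leaving out 90dG replicates 2 and 3 gave 2. From 90dG to 125dG (1 called), leaving out 1 array gave 0 to 1. That count was 0 with no filter, with eBayes without an intensity trend, without 90dG replicates 2 and 3, and with the GAPDH ratio as a covariate (also chosen after seeing the data). From 125dG to 160dG the count was 0 in every setting run. The median adult difference (0.80 log2) was 0.73 with a pseudocount of 64, 1.00 with no filter (69 enzymes, all genes 0.12), 0.96 after quantile normalization (all genes 0.04), and 0.67 to 0.94 on leaving out 1 array. The cause of these shifts was not tested beyond what the settings themselves change.

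With the replicate number as a block, the replicate block fit called 4 enzymes for the trend, 9 between 60dG and 160dG (EPHX2 and MGST2 lost), 8 for the step to 90dG, and 0 for each later step. Over 551 values of called enzymes under single settings, 488 kept their call, 63 kept their direction and lost it, and 0 reversed. Leaving out an array of a stage outside a comparison leaves that difference unchanged, so its direction could not reverse there. Enzymes that fell under the filter of a setting were not counted, so 63 is too low a count of lost calls. Between 60dG and 160dG these were CES1 with a pseudocount of 1, and AKR1C2, CES1, CYP4A11 and FMO2 with a filter at the 0.75 quantile. The precision is limited by 2 arrays at 60dG and by signals near the background.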

Other observations

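Enzymes below the filter in the fetus differed from the adult arrays in both directions. These were chosen after their values were seen and were not tested, and over all genes without a filter the adult arrays were 0.12 log2 higher in the median. CYP2C8, which oxidises arachidonic acid and many drugs, had 21.5, 28.2 and 49.7 at 160dG and 256, 179 and 146 in adults. CYP2R1, a vitamin D hydroxylase known from the liver, had 6.7, 10.3 and 44.7 at 160dG and 109, 99.3 and 100.5 in adults. For both genes every adult array was above every fetal array. CYP20A1 went the other way, with 209, 224 and 160.5 at 160dG and 105, 58.2 and 45.6 in adults. CYP3A5 did not follow them, with 154, 257 and 149 at 160dG and 84.6, 201 and 47.7 in adults, which overlapped.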
